A study of Mus musculus with 6 samples.

Results

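The genes described here are those of the 2 stress programmes that match protein synthesis to amino acid supply and to the folding capacity of the endoplasmic reticulum (ER). A list of 46 genes held the transcription factor ATF4 with its regulators and target genes (16 genes, called the ATF4 arm), 11 cytosolic tRNA synthetases, the transcription factors XBP1 and ATF6 with their ER target genes (17 genes, called the XBP1/ATF6 arm) and 2 stress sensor kinases of the ER membrane. A gene counted as measured when a probe set carried its symbol and no other, and where a gene had several such probe sets, the brightest on average stood for it. By this rule 44 of the 46 genes were measured, of 19938 genes in all. Aars, which charges tRNA with alanine, was listed only on a probe set with several symbols and was not used, and Mars, which charges tRNA with methionine, had no probe set with a single symbol.

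RNA came from mouse B cells transformed by BCR-ABL1, the kinase made by the Philadelphia translocation of human leukaemias, that lacked or had gamma-catenin, the junction protein encoded by Jup. The donors were bone marrow chimeras on the C57BL/6 background, CD45.1+ mice carrying CD45.2+ fetal liver cells of the genotype Jup-/- (KO) or Jup+/+ (WT). Their marrow was transduced with a retrovirus for BCR-ABL1 and GFP and given to lethally irradiated CD45.1+ recipients, and GFP+ B220+ BP-1+ CD45.2+ cells were sorted from bone marrow at day 21. Both genotypes therefore carried BCR-ABL1, and there was no untransduced group; ages and the number of animals behind a sample are not given in the sources used here. Each genotype had 3 samples, labelled as biological replicates 1 to 3, each on a 1-colour Affymetrix array. The labels do not say whether each biological replicate was a separate animal or a pool, so p-values measure only the spread between these samples. In bulk RNA, fewer cells of a type and less RNA per cell cannot be told apart.

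ATF4 is the effector of the integrated stress response. When one of several kinases (GCN2 for uncharged tRNA, PERK for unfolded ER proteins) phosphorylates the initiation factor eIF2, general translation drops while Atf4 mRNA is translated more, and ATF4 then switches on amino acid synthesis, amino acid transporters and tRNA synthetases. The other branches of the unfolded protein response run through IRE1, which splices Xbp1 mRNA into its active form, and through ATF6, which is cut free from the membrane; both raise chaperones, disulfide isomerases and the machinery of ER-associated degradation. Cells of the B lineage are known for their reliance on XBP1 when they become plasma cells. Since ATF4, XBP1 and ATF6 are governed largely by translation, splicing and cleavage, the RNA level of these factors does not give their activity, and the arrays did not separate spliced from unspliced Xbp1.

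The DNA letters by which the branches are told apart are printed here. The list of members did not use them directly, but it was made of target genes of these factors. The shares below are therefore a description and no independent evidence. Promoter windows of 300 bases, from 250 before to 50 after the annotated start (RefSeq, GRCm38.p6), were held for 36 of the 44 measured genes, in 39 windows. They were searched on both strands for the ER stress response element ERSE (CCAAT, then 9 free bases, then CCACG), for ERSE-II (ATTGG, 1 free base, CCACG), for the ATF4 composite element (TGATGNAA) and for the UPR element TGACGTGG. All but the ATF4 element hold CCACG on one of the strands, so that their matches can overlap. ERSE was found in 6 of the 13 genes of the XBP1/ATF6 arm with a window, against 37 of 27025 genes with a window (0.137%), or 39 of 32851 windows of all promoters (0.119%). It was found in 0 of 15 genes of the ATF4 arm and 0 of 6 tRNA synthetases. The matches follow, read 5′ to 3′ in the orientation of the motif, with the fixed letters in capitals:
Hspa5: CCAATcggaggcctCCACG
Calr: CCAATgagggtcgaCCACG
Creld2: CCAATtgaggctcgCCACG
Dnajc3: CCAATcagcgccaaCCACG
Hsp90b1, nearer the start: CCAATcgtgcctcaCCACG
Hsp90b1, farther from the start: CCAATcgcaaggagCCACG
Pdia6: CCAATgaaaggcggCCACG
Herpud1, ERSE-II: ATTGGgCCACG

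The ERSE of Hspa5, which encodes the chaperone BiP, lay at chr2:34772025-34772043 on the plus strand of GRCm38.p6, at bases -65 to -47 counted from the start. The ERSE-II of Herpud1, at chr8:94386377-94386387 on the plus strand, was the single match to that pattern among the members, and 0.0365% of all promoter windows held one.

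The ATF4 composite element was found in 4 of 15 genes of the ATF4 arm, in 4 of 6 tRNA synthetases and in 1 of 13 genes of the XBP1/ATF6 arm. Of all genes with a window 4.51% held it, and of all promoter windows 3.97%. The TGACGTGG pattern was in none of the members' windows and in 0.676% of all. The matches to the ATF4 element follow in the same way, with 6 flanking bases on either side:
Asns: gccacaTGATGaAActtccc
Chac1: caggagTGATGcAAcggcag
Trib3: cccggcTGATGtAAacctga
Slc7a11, nearer the start: gcatgaTGATGcAAattctc
Slc7a11, farther from the start: tgtggcTGATGcAAacctgg
Gars: ggtgcaTGATGaAAtagcgc
Iars: tggaggTGATGcAAtactga
Tars: accagcTGATGcAAcgggac
Yars: ctcagcTGATGcAAcccgac
Herpud1: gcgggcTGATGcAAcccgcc

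Herpud1, a membrane protein of ER-associated degradation, was the single member with an element of both kinds. The 250 bases before its start, chr8:94386179-94386428 on the plus strand, are shown with the ATF4 element (on the opposite strand, so that it reads TTGCATCA here) and the ERSE-II in capitals. The same stretch before Hspa5, chr2:34771840-34772089 on the plus strand, has its ERSE in capitals and no ATF4 element:
Herpud1: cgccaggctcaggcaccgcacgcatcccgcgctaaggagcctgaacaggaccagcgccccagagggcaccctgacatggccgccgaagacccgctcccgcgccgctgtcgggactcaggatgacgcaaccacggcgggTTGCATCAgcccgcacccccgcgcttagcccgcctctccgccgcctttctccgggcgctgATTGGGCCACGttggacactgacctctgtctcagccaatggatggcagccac
Hspa5: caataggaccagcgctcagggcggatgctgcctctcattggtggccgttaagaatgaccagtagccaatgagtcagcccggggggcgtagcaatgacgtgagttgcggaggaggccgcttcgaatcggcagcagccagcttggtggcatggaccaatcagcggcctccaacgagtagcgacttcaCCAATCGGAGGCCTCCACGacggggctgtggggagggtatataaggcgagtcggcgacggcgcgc

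A match to these letters is a description of the window and not of binding. Xbp1, Sdf2l1, Dnajb9, Eif2ak3 and Ern1 had a window with no match to any of the 4 patterns, which says only that these letters are not in it.

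As a check of the labels, Jup read 7.04, 7.06 and 7.27 (log2 expression) in the KO samples and 8.04, 7.62 and 8.51 in the WT samples, a difference of -0.93 ± 0.20 (SE, n = 3 per group; limma adjusted p = 0.171), with no overlap. Where the probe set lies relative to the deleted sequence was not known here. One library stood apart: Xist was 6.20 in WT replicate 2 and 13.03 to 13.38 on the other 5 arrays, and Y-linked genes were high there, so the WT group alone held cells of a male. Markers of myeloid cells, which the sort for GFP+ B220+ BP-1+ cells should remove, also differed between the genotypes. Of 20 myeloid markers measured, 18 were higher in KO and 13 of them did not overlap, as did 5.94% of all probe sets with KO above WT. The mean level of the markers was 8.42 to 8.48 on the KO arrays and 7.62 to 8.10 on the WT arrays. The highest of the WT values was that of WT replicate 2. None of these markers was listed at 0. Mpo, Elane and Ctsg passed an adjusted p of 0.05 (limma), as did 0.0505% of all probe sets as higher. These genes were at 7.63 or more on every KO array. Whether this RNA came from other cells or from the sorted ones was not tested, nor was the part of these markers and of sex in the differences below. T and NK cell markers had mean levels of 6.25 to 6.42 in KO and 6.38 to 6.50 in WT, and erythroid markers 7.66 to 7.85 and 7.66 to 7.81. Of 8 T and NK cell markers measured, 2 were higher and 6 lower in KO, and Klrb1c was at -0.79 without overlap (adjusted p = 0.256, limma). Markers of the sorted B cells had mean levels of 12.51 to 12.62 in KO and 12.46 to 12.54 in WT. Of 9 measured, 6 were higher and 3 lower in KO, and 0 passed the adjusted p. Enpep, which encodes the sort marker BP-1, was at -0.23, and Ptprc, which encodes B220, at 0.19, both without overlap. Of all probe sets 8.08% lay below and 5.94% above without overlap. Rag1 was at 0.50 with overlap. Plasma cell markers, of which 9 of 10 were measured, had mean levels of 8.09 to 8.23 in KO and 8.06 to 8.17 in WT. The array medians were 7.53 to 7.61. Prdm1 (6.26 to 6.91) and Jchain (5.94 to 6.52) lay below them, as did Tnfrsf17, Cd28 and Fkbp11, while Irf4 (11.60 to 12.31), Slamf7 (11.85 to 12.36), Tnfrsf13b (9.37 to 9.70) and Sdc1 (7.72 to 8.34) lay above.

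Loss of gamma-catenin was set against these genes in 1 fit over all 21789 probe sets, and none of the 44 members passed an adjusted p of 0.05 in either direction. Of all probe sets 0.0505% passed as higher and 0.0688% as lower. At an unadjusted p under 0.05, limma gave 3 members higher in KO (Eif2ak3, Herpud1 and Dnajb9) and 4 lower (Mzb1, Sdf2l1, Xbp1 and Trib3), against 4.48% higher and 4.73% lower of all probe sets. As shares these counts were 6.82% and 9.09% of the members. Among the 13073 probe sets whose mean lay at or above the 40th percentile, as it did for 43 of the 44 members, the shares were 6.31% and 6.16%. The KO arrays all lay above the WT arrays for 3 members and all below for 5, while 5.94% and 8.08% of all probe sets did so. With all arrays these shares were near the background, and the counts at an unadjusted p under 0.05 (limma) moved with single arrays. Lower members numbered 9 without KO replicate 1, and 2 when KO replicate 3, WT replicate 1 or WT replicate 2 was left out. Higher members numbered 6 without WT replicate 1. The share of all probe sets was not counted in those fits, so these counts cannot be set against a background. The members' median difference was -0.04, beside -0.02 for all probe sets, and 32 of 44 lay within 0.2 of 0 (72.7%, against 86.3% of all probe sets).

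**Figure D1:**
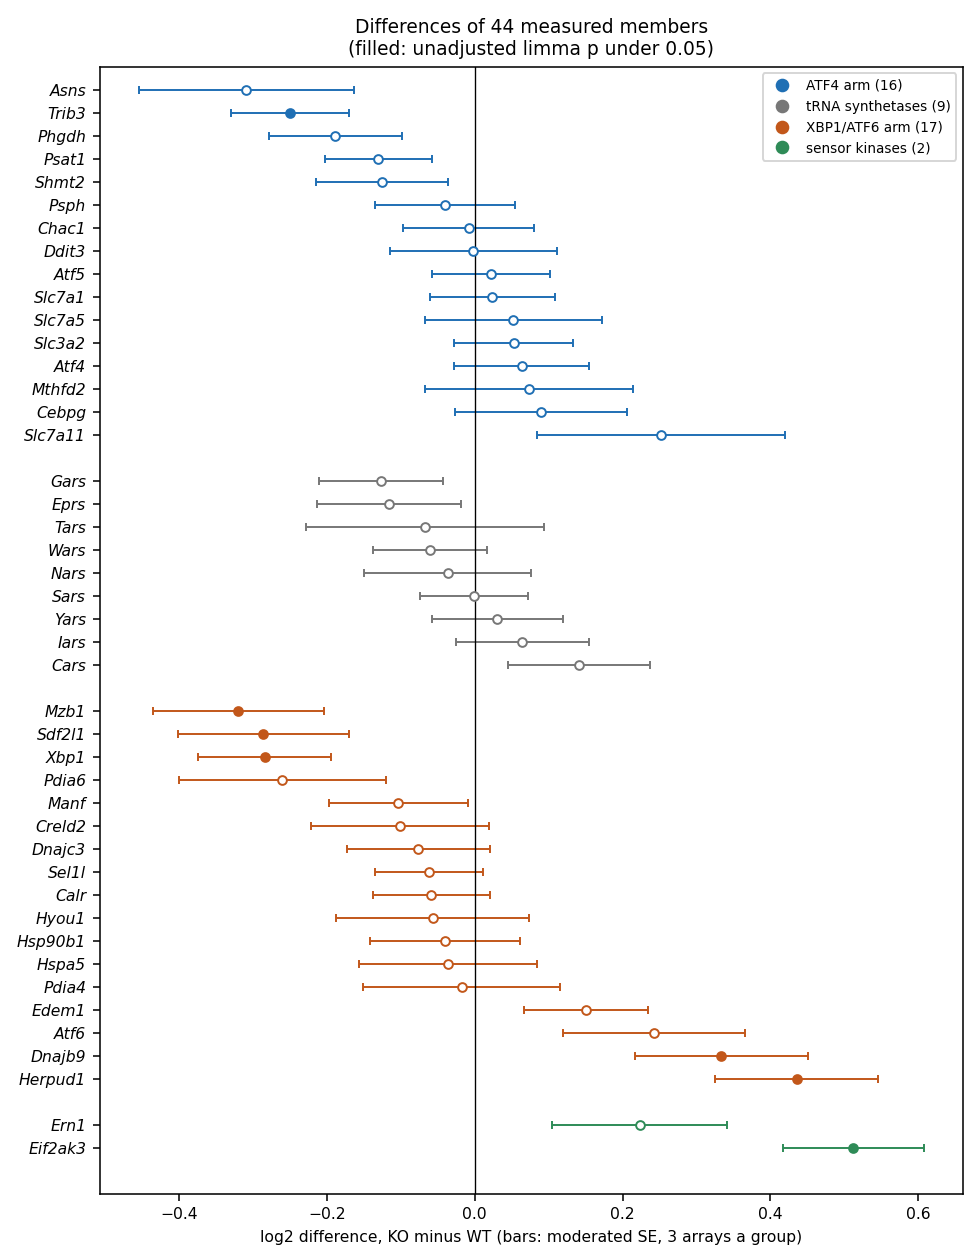
Log2 difference, KO minus WT, of the 44 measured members by role, with moderated standard errors over 3 arrays a group; filled points had an unadjusted limma p under 0.05. Eif2ak3 (0.51) and Herpud1 (0.44) lie farthest to the right, and Mzb1 (-0.32) and Asns (-0.31) farthest to the left.

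The comparison of the arms asked whether the amino acid branch and the ER branches moved apart. The ATF4 arm had 8 genes higher and 8 lower in KO, with a median difference of 0.01 and a range from -0.31 to 0.25. In the XBP1/ATF6 arm 4 genes were higher and 13 lower, with a median of -0.06 and a range from -0.32 to 0.44. The median of the first minus that of the second was 0.07. With 1 array left out it was 0.03 without KO replicate 2 or KO replicate 3, 0.04 without WT replicate 1 and 0.11 without KO replicate 1, and the median of the XBP1/ATF6 arm ran from -0.15 (without WT replicate 3) to -0.02 (without KO replicate 3 or WT replicate 2). The XBP1/ATF6 arm held 5 of the 7 members with an unadjusted p under 0.05, in both directions (29.4% of its genes, beside 9.22% of all probe sets), and the ATF4 arm 1. The 9 synthetases held none and all lay within 0.2 of 0. Of the brighter probe sets (mean at or above the 40th percentile), 6.31% were higher and 6.16% lower at an unadjusted p under 0.05 (limma). Every gene of the XBP1/ATF6 arm was among them.

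Averaged over their genes, the ATF4 arm, the XBP1/ATF6 arm and the tRNA synthetases each differed more between arrays of 1 genotype than between the genotypes; the 2 sensor kinases, described next, did not. For the ATF4 arm the mean deviation from the WT mean was 0.05, -0.03 and -0.09 on the KO arrays of replicates 1, 2 and 3, and 0.05, 0.03 and -0.08 on the WT arrays. For the XBP1/ATF6 arm it was 0.05, 0.00 and -0.15 in KO and 0.07, 0.06 and -0.13 in WT. For the tRNA synthetases it was 0.10, -0.05 and -0.10 in KO and 0.08, 0.03 and -0.11 in WT. In these 3 groups of genes and both genotypes, the array of replicate 1 was the highest and that of replicate 3 the lowest. The differences between genotype means were -0.03, -0.03 and -0.02, smaller than the SDs within a genotype, which ran from 0.0713 to 0.112. These SDs include the order of replicates that both genotypes shared. The ATF4 arm minus the XBP1/ATF6 arm spanned -0.04 to 0.05 over the KO arrays and -0.03 to 0.05 over the WT arrays, so it did not separate the genotypes.

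**Figure D2:**
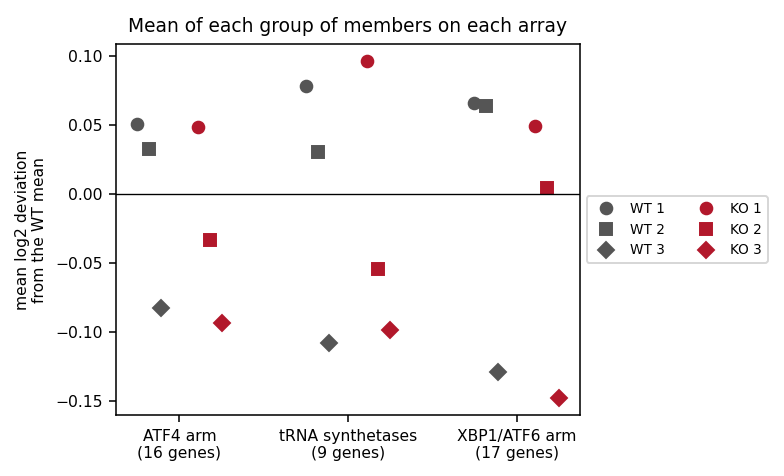
Mean log2 deviation from the WT mean of the genes of each group, 1 point per array, with symbols for the replicate number and colours for the genotype. KO and WT points overlap in all 3 groups; in the XBP1/ATF6 arm they run from -0.15 to 0.05 in KO and from -0.13 to 0.07 in WT.

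The sensor kinases were the members with the highest median difference, 0.37. Eif2ak3, which encodes PERK, the ER kinase that phosphorylates eIF2, read 11.33, 11.45 and 11.48 on the KO arrays and 11.07, 10.85 and 10.79 on the WT arrays. All 3 KO arrays were above all 3 WT arrays. Its difference of 0.51 ± 0.10 (SE, n = 3 per group; 95% interval 0.29 to 0.73; 1.43-fold) was the largest in size among the members, and its limma adjusted p was 0.123. It stayed between 0.45 and 0.60 when any 1 array was left out, and passed the threshold under 2 other settings of the fit (adjusted p = 0.0475 with a trended and robust prior, and adjusted p = 0.0272 with array weights, both limma). Ern1, which encodes IRE1 alpha, the kinase and nuclease that splices Xbp1 mRNA, read 8.13, 8.45 and 8.23 in KO and 8.25, 7.99 and 7.91 in WT. Its groups overlapped, because WT replicate 1 lay above KO replicates 1 and 3, and the difference was 0.22 ± 0.12 (adjusted p = 0.637, limma), or 0.13 without KO replicate 2.

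The factors of the XBP1/ATF6 arm differed in sign. Xbp1 read 11.50, 11.67 and 11.53 in KO and 11.84, 11.97 and 11.74 in WT. All KO arrays were below all WT arrays, by 0.28 ± 0.09 on average (1.22-fold lower; 95% interval of the difference -0.49 to -0.08; limma adjusted p = 0.376). Atf6, whose protein is released from the membrane by proteases of the Golgi, read 9.98, 10.29 and 9.91 in KO and 9.97, 9.83 and 9.66 in WT. The groups overlapped and KO replicate 2 was the highest array. Its difference was 0.24 ± 0.12 (adjusted p = 0.621, limma) with all arrays and 0.13 without that one.

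The ER chaperones and co-chaperones of the list, 8 genes, were lower in KO in 7 cases and higher in 1, with 2 lower and 1 higher at an unadjusted p under 0.05. Of all probe sets, 12148 of 21789 were lower, and 4.73% were lower and 4.48% higher at that p. Of the brighter probe sets 6.16% were lower and 6.31% higher at that p. Hspa5 encodes BiP, the master chaperone of the ER lumen that also holds the sensors inactive. It read 12.16, 12.08 and 11.99 in KO and 12.18, 12.31 and 11.85 in WT, so that the WT arrays held both the highest and the lowest value. Its difference was -0.04 ± 0.12, with a 95% interval from -0.31 to 0.24 (adjusted p = 0.967, limma). Hsp90b1, the ER member of the HSP90 family, was at -0.04, Hyou1, a nucleotide exchange factor for BiP, at -0.06, Calr, the lectin chaperone calreticulin, at -0.06, and Dnajc3, a J-domain partner of BiP, at -0.08, each with overlap.

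Mzb1, an ER protein of B cells that assists the assembly of immunoglobulin, read 12.73, 12.61 and 12.31 in KO and 12.95, 12.90 and 12.77 in WT. KO arrays were all below WT arrays. The difference was -0.32 ± 0.12 (1.25-fold lower; adjusted p = 0.444, limma), and -0.20 without KO replicate 3, the lowest array. Sdf2l1, a partner of the ER J-domain proteins, read 11.15, 10.81 and 10.73 in KO and 11.14, 11.26 and 11.14 in WT. KO replicates 2 and 3 were low and KO replicate 1 lay among the WT arrays. Its difference was -0.29 ± 0.12 (adjusted p = 0.50, limma).

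Dnajb9, the J-domain protein ERdj4 that passes misfolded proteins to BiP and on to degradation, went the other way among the chaperones. It read 10.24, 10.33 and 10.26 in KO and 10.06, 9.67 and 10.09 in WT. The groups did not overlap, and WT replicate 2, the array of male cells, was the lowest. The difference was 0.33 ± 0.12 (adjusted p = 0.425, limma), and 0.20 without WT replicate 2.

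The disulfide isomerases and secreted ER factors gave 4 differences below 0. Pdia6, an isomerase that also attenuates IRE1, was at -0.26 ± 0.14 (10.58, 10.40 and 10.08 in KO against 10.67, 10.74 and 10.42 in WT; adjusted p = 0.645, limma). Manf and Creld2, small ER proteins that are secreted under stress, were both at -0.10. Pdia4, another isomerase, was at -0.02 on the probe set used and at -0.21 on its other probe set.

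Of the genes that remove misfolded proteins from the ER, Herpud1 read 12.01, 12.30 and 12.12 in KO and 11.84, 11.76 and 11.53 in WT. Every KO array was above every WT array. The difference was 0.44 ± 0.11 (1.35-fold; 95% interval 0.18 to 0.69; limma adjusted p = 0.265), the second in size after Eif2ak3, and was 0.35 to 0.50 with any 1 array left out. Edem1, a lectin that directs glycoproteins to degradation, was at 0.15 ± 0.08 (11.05, 11.10 and 10.95 against 10.90, 10.97 and 10.78; adjusted p = 0.658, limma). Sel1l, the scaffold of the HRD1 ubiquitin ligase, was at -0.06.

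**Figure D3:**
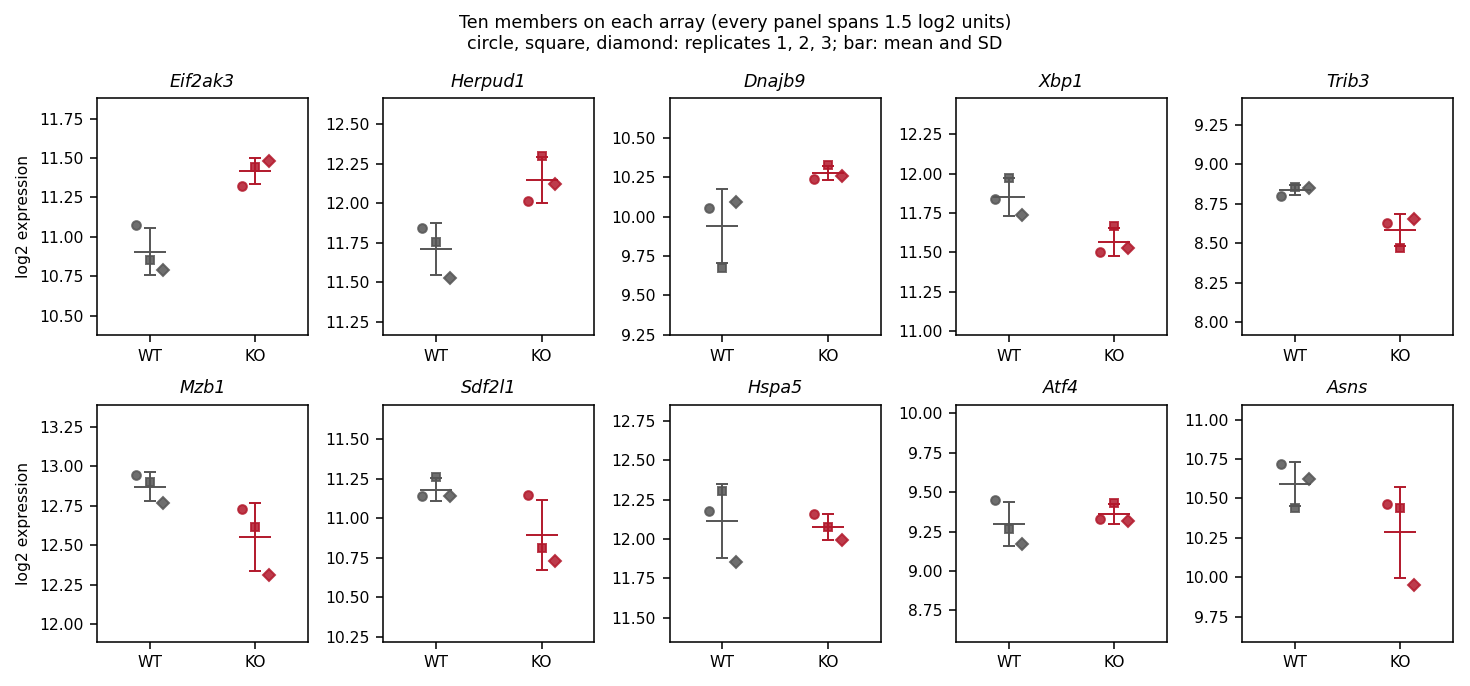
Log2 expression of 10 members on each array, with the mean and SD of 3 arrays per genotype; every panel spans the same number of log2 units, and symbols give the replicate number. The KO points lie above the WT points for Eif2ak3, Herpud1 and Dnajb9 and below them for Xbp1, Trib3 and Mzb1; those of Sdf2l1, Hspa5, Atf4 and Asns overlap.

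The regulators of the ATF4 arm had differences under 0.1 in size, except for Trib3. Atf4 itself read 9.33, 9.43 and 9.32 in KO and 9.45, 9.27 and 9.17 in WT. Its difference was 0.06 ± 0.09, with a 95% interval from -0.15 to 0.27 (adjusted p = 0.910, limma). It was 0.002 without WT replicate 3 and 0.14 without WT replicate 1. Ddit3, which encodes the pro-apoptotic partner CHOP, read 8.24, 8.42 and 8.43 in KO and 8.4, 8.55 and 8.16 in WT, with both means at 8.37 and a 95% interval of the difference from -0.26 to 0.26. Atf5, a related factor translated by the same mechanism, read 8.15, 8.31 and 8.29 against 8.15, 8.26 and 8.26, a difference of 0.02 ± 0.08. Cebpg, which pairs with ATF4 on amino acid genes, read 8.87, 9.0 and 9.09 against 9.0, 9.04 and 8.66, a difference of 0.09 ± 0.12. The groups of all 4 genes overlapped.

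Trib3, a pseudokinase induced by ATF4 and CHOP that feeds back on ATF4, read 8.63, 8.47 and 8.66 in KO and 8.80, 8.86 and 8.85 in WT. All KO arrays were below all WT arrays. The difference was -0.25 ± 0.08 (1.19-fold lower; 95% interval -0.43 to -0.07; limma adjusted p = 0.379) and stayed between -0.28 and -0.19 with any 1 array left out.

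Among the enzymes of the ATF4 arm, Asns, which makes asparagine, read 10.46, 10.44 and 9.95 in KO and 10.72, 10.44 and 10.62 in WT. KO replicate 3 was far below the others, and the rest overlapped. The difference was -0.31 ± 0.15 (adjusted p = 0.583, limma), and -0.14 without KO replicate 3. Chac1, which degrades glutathione, was at -0.01. Of the 5 enzymes that make serine and carry its one-carbon units, 4 were lower in KO and 1 higher. Phgdh, the first step from glucose to serine, read 10.69, 10.42 and 10.44 in KO and 10.69, 10.70 and 10.71 in WT. The groups were kept apart by less than 0.01 at replicate 1, and its difference was -0.19 ± 0.09 (adjusted p = 0.591, limma). Psat1, the next enzyme, read 11.34, 11.30 and 11.22 against 11.41, 11.43 and 11.40, a difference of -0.13 ± 0.07 without overlap (adjusted p = 0.660, limma). Psph, the last step, was at -0.04, Shmt2, which moves the one-carbon unit to folate in mitochondria, at -0.13, and Mthfd2, which acts after it, at 0.07.

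The 4 amino acid transporters of the ATF4 arm were all above 0 in their difference, by 0.02 to 0.25, with overlap in each. Slc7a11, which imports cystine, read 5.42, 4.85 and 4.80 in KO and 4.96, 4.68 and 4.68 in WT. KO replicate 1 stood apart, and its difference of 0.25 ± 0.17 (adjusted p = 0.733, limma) was 0.05 without that array. Its probe set was the single dim one among the members, and RMA compresses the changes of dim probe sets. Slc7a5 and Slc3a2, the chains of the large neutral amino acid carrier LAT1, were both at 0.05, and Slc7a1, which imports cationic amino acids, at 0.02.

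The cytosolic tRNA synthetases, which load amino acids onto tRNA, differed by at most 0.14 in either direction with all arrays, a limit that rested on single arrays. Without KO replicate 1, Eprs was at -0.20 and Gars at -0.20, and without WT replicate 1 Cars was at 0.21. Cars (cysteine) read 9.56, 9.55 and 9.60 in KO and 9.58, 9.47 and 9.25 in WT, a difference of 0.14 ± 0.10 in which WT replicate 3 was low (0.05 without it). Iars (isoleucine) was at 0.06 ± 0.09 (12.22, 12.25 and 12.05 against 12.20, 12.14 and 11.99) and at 0.08 on its other probe set; it was 0.01 without WT replicate 3 and 0.12 without KO replicate 3. Gars (glycine) read 11.29, 11.07 and 11.10 in KO and 11.29, 11.30 and 11.25 in WT, a difference of -0.13 ± 0.08. Eprs (glutamate and proline) read 10.46, 10.19 and 10.23 against 10.41, 10.50 and 10.31, a difference of -0.12 ± 0.10. In Gars and Eprs, KO replicates 2 and 3 were below the WT arrays and KO replicate 1 was among them. Tars, Wars, Nars, Sars and Yars lay between -0.07 and 0.03 with all arrays. Tars (threonine) had the largest SE of the 9 genes, 0.16. It read 9.46, 9.02 and 8.89 in KO and 9.40, 9.19 and 8.99 in WT. KO replicates 1, 2 and 3 deviated from its WT mean by 0.27, -0.17 and -0.30, so its difference rested on single arrays too. For Tars, Wars, Nars, Sars and Yars, values with an array left out are not given here. The smallest limma adjusted p of the 9 genes was 0.733.

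Read against the promoter elements printed above, the genes with an ERSE and those with an ATF4 element gave these values. The 6 genes with an ERSE (Hspa5, Calr, Creld2, Dnajc3, Hsp90b1 and Pdia6) were all lower in KO, by small amounts, with a median difference of -0.07, a range from -0.26 to -0.04 and none at an unadjusted p under 0.05. Of all probe sets 12148 of 21789 were lower, and of the whole XBP1/ATF6 arm 13 of 17 genes, so a lower value was not particular to the genes with an ERSE. The groups of each of these genes overlapped. The sign of Hspa5 was not stable, since it was 0.06 without WT replicate 2 and 0.006 without KO replicate 3. Hsp90b1, at -0.04, read 12.36, 12.26 and 12.13 in KO and 12.33, 12.41 and 12.12 in WT. For Hsp90b1 and the other genes with an ERSE, values with an array left out are not given here. The 9 genes with an ATF4 element had 4 higher and 5 lower, with a median of -0.01. They ran from Asns at -0.31 to Herpud1 at 0.44. Herpud1 and Trib3 had an unadjusted p under 0.05, as did 9.22% of all probe sets.

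**Figure D4:**
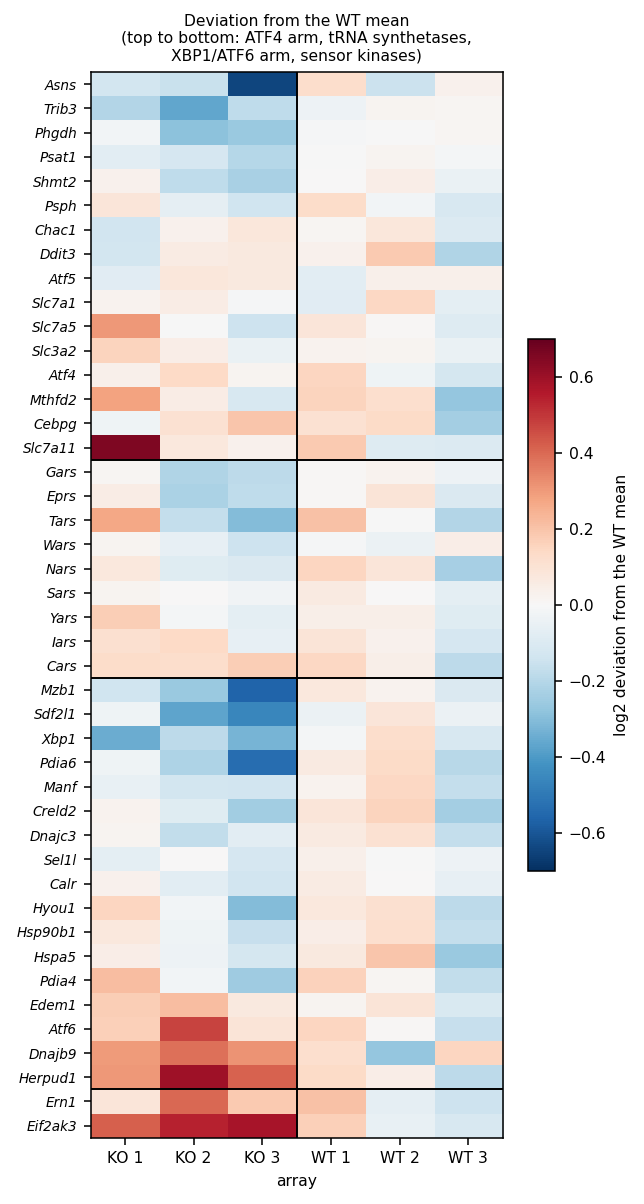
Log2 deviation of each measured member from its WT mean on each of the 6 arrays, ordered by role and then by difference, on a colour scale from blue (lower) through white to red (higher). Eif2ak3, Herpud1 and Dnajb9 are red on all 3 KO arrays and Xbp1, Trib3 and Mzb1 blue, while most other members change colour between arrays of 1 genotype.

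Gene by gene, the KO arrays shared a sign in fewer than all cases. In the ATF4 arm 2 genes were above the WT mean on 3 of 3 KO arrays, 4 below on 3 of 3, and 10 mixed. In the XBP1/ATF6 arm 4 were above on 3 of 3, 5 below on 3 of 3 and 8 mixed. Of the synthetases 1 was above on 3 of 3 and 8 were mixed, and both sensor kinases were above on 3 of 3. The same share was not counted over all probe sets, so these counts describe the members and cannot be set against a background.

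Lists of further genes of the same pathways held 116 genes, of which 103 were measured. In limma 8 were higher and 3 lower at an unadjusted p under 0.05, together 10.7% of the genes against 9.22% of all probe sets, which is near the background. In the same fit 1 passed the adjusted threshold, as lower. Their median difference was -0.01, with 44 higher and 59 lower. Without KO replicate 2 or WT replicate 3 the 8 became 2, and without WT replicate 2 it became 5. The 3 became 12 without KO replicate 1 and 1 without WT replicate 2. In those fits the share of all probe sets was not counted.

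The gene that passed was Impact, of the list of eIF2 kinases, phosphatase subunits and GCN2 control (8 of 10 measured, median 0.01). IMPACT is an inhibitor of the eIF2 kinase GCN2 that competes for its activator. It read 9.13, 9.09 and 9.13 on the KO arrays and 9.78, 9.63 and 9.74 on the WT arrays. It fell by 0.60 ± 0.07 on the log2 scale (1.51-fold lower, n = 3 per group; limma adjusted p = 0.0393), with no overlap. Its size was -0.64 to -0.57 with any 1 array left out, but its adjusted p was then 0.0551 to 0.168, so the call was lost in each of those 6 fits. With the replicate number as a block it was lost as well (adjusted p = 0.0641, limma). Eif2ak4, which encodes GCN2 itself, read 9.47, 9.58 and 9.37 in KO and 9.18, 9.16 and 9.12 in WT. Its KO arrays were all higher, by 0.32 ± 0.08 (adjusted p = 0.257, limma). The other eIF2 kinases of the list were Eif2ak1 at 0.09 and Eif2ak2 at -0.16, and the stress-induced phosphatase subunit Ppp1r15a was at 0.12, each with overlap.

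Of further ATF4 and CHOP targets 24 of 27 were measured, with a median of -0.002 and 2 higher and 1 lower at an unadjusted p under 0.05. Slc1a5, the glutamine transporter ASCT2, read 11.99, 12.06 and 12.15 in KO and 11.25, 11.75 and 11.26 in WT. The groups did not overlap, and WT replicate 2 was the closest to the KO arrays. The difference was 0.65 ± 0.14 (1.57-fold; adjusted p = 0.166, limma), and without WT replicate 2 it was 0.81 and passed (adjusted p = 0.0339, limma). Xpot, which exports tRNA from the nucleus, was at -0.27 ± 0.11 (10.45, 10.09 and 10.14 against 10.57, 10.45 and 10.46; adjusted p = 0.494, limma).

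The other cytosolic synthetases and scaffold proteins, 11 of 12 measured, were lower in KO in 10 cases, with a median of -0.12 and 1 gene at an unadjusted p under 0.05. That was Eef1e1, a scaffold of the multi-synthetase complex, at -0.26 ± 0.08 without overlap (10.95, 10.73 and 10.84 against 11.07, 11.16 and 11.06; adjusted p = 0.380, limma). Kars (lysine) was at -0.18 ± 0.10 with overlap. The mean deviation of these 11 genes still overlapped between genotypes, from -0.20 to 0.01 in KO and from -0.06 to 0.06 in WT. The mitochondrial synthetases, 16 of 17 measured, had a median of -0.01 and none at an unadjusted p under 0.05; Yars2 and Tars2 had the smallest p and were both at -0.13 without overlap.

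Further XBP1 and ATF6 targets and folding genes, 18 of 20 measured, had a median of 0.04, with 3 higher and 0 lower at an unadjusted p under 0.05 (a share of 16.7%, against 4.48% higher and 4.73% lower of all probe sets). Of the brighter probe sets described above, 6.31% were higher and 6.16% lower at that p. Serp1, which stabilises membrane proteins at the translocon, read 12.20, 12.43 and 12.21 in KO and 12.11, 12.00 and 11.90 in WT, a difference of 0.28 ± 0.10 without overlap (adjusted p = 0.416, limma). Txndc11, a thioredoxin-domain protein of the ER, read 9.55, 10.10 and 9.61 against 9.50, 9.33 and 9.22. KO replicate 2 was its highest array, and the difference was 0.41 ± 0.15 (adjusted p = 0.452, limma), or 0.23 without that array. Of the genes of ER degradation, 11 of 13 measured, 2 were higher at an unadjusted p under 0.05 (18.2%, against the same 4.48% and 6.31%). They were the lectin Erlec1 at 0.24 ± 0.09 and the mannosidase-like Edem3 at 0.31 ± 0.13 (adjusted p = 0.443 and adjusted p = 0.503, limma). The genes of the translocon and signal peptidase, 15 of 17 measured, all lay within 0.2 of 0, with Ssr3 at -0.15 and Ssr1 at -0.12, both without overlap.

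**Figure D5:**
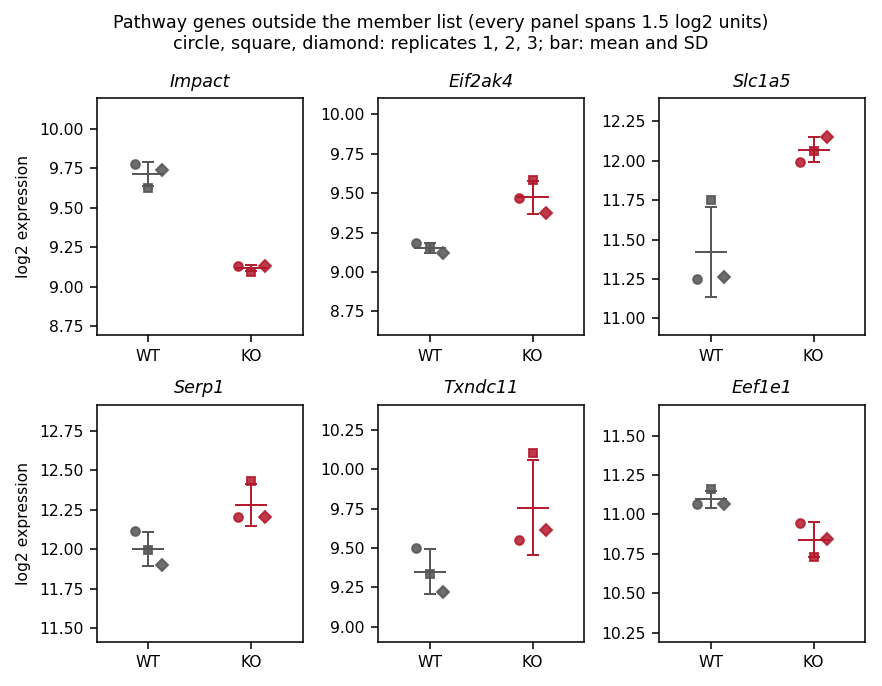
Log2 expression on each array of 6 pathway genes outside the list of members, with the mean and SD of 3 arrays per genotype and symbols for the replicate number. The KO points of Impact (9.09 to 9.13) lie below its WT points (9.63 to 9.78), as do those of Eef1e1; those of Eif2ak4, Slc1a5, Serp1 and Txndc11 lie above.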

How the data were processed

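The authors deposited log2 expression values; the submitters' processing notes name RMA and Affymetrix Expression Console 1.1, and the options of RMA are not given in the sources used here. RMA equalises the arrays and compresses changes of dim probe sets. The table held 35556 probe sets, of which 21789 with 1 gene symbol in the platform annotation were tested. Symbols were compared with RefSeq (GRCm38.p6) by gene ID: 0 differed and 91 had no match. KO was set against WT (3 arrays each) with limma 3.58.1 in R 4.3.3 (lmFit, eBayes), with no covariate, filter or block; p-values are two-sided, adjusted by Benjamini-Hochberg over all 21789, with a threshold of 0.05, and SEs are moderated. The fit was tested on simulated data. Arrays have no read depth, and their number limits the precision.

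Members and lists were chosen with earlier results of these data known, so their counts are no independent evidence. Values per array are given for the regulators, the sensors, Hspa5 and Asns, for members with an unadjusted p under 0.05, and for the 2 highest and 2 lowest moderated t of each group; of each pathway list, the 2 genes with the smallest p are given. Pdia6, Edem1, Phgdh, Psat1, Hsp90b1 and Tars, and Eif2ak1, Eif2ak2, Ppp1r15a and Ptprc, were added after their values were seen. Sequences came from RefSeq's promoter table. Alternatives were other probe set filters and summaries, priors, array weights, normalizations, leaving out each array in turn, a replicate block, a looser adjusted p of 0.1 and a 200-base window.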

Additional observations from a re-analysis of the deposited data

How the results depend on the processing

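With 3 arrays a group, no member passed the adjusted threshold in the fit as reported. Eif2ak3 did so under a trended and robust prior and under array weights, each giving 1 member as higher in KO. Array weights also gave 5 members higher at an unadjusted p under 0.05 (limma), against 3. The share of all probe sets at that p was counted only in the fit as reported. The counts under other settings therefore cannot be set against a background. For the pathway genes outside the members, the alternatives were added after seeing the data. Their count lower at an unadjusted p under 0.05 was 7 with the trended and robust prior, 6 with array weights and 6 with the replicate block, against 3, and Impact was lost under the block, leaving 0. Without 1 array at a time, members at an unadjusted p under 0.05 numbered 2 to 6 higher and 2 to 9 lower (9 without KO replicate 1, 6 higher without WT replicate 1). Pathway genes numbered 2 to 9 higher (2 without KO replicate 2 and without WT replicate 3) and 1 to 12 lower (12 without KO replicate 1, 1 without WT replicate 2), and those past the adjusted p 0 to 1 higher (Slc1a5, without WT replicate 2) and 0 to 0 lower.

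Of 20 named members 16 kept their sign in all settings run (15 for each, 14 for Slc7a11), as did 14 of 14 named pathway genes. The 4 that did not were near 0: Ddit3 was 0.0033 after centring, and without 1 array Ddit3 ran from -0.108 to 0.0889, Atf5 from -0.0143 to 0.0725, Hspa5 from -0.167 to 0.06 and Cebpg from -0.0306 to 0.157. The probe set filters, the prior and the replicate block left unchanged each difference that they kept, so no sign could change there. Averaging a gene's probe sets could change only genes with several. Part of the named members and all of the named pathway genes were named for a small p or an extreme t in these data. Their kept signs are therefore no independent support. The median of all probe sets was -0.02 as deposited and -0.01 after a further quantile normalization and after centring, so scaling moved it by little. In the nearest 200 bases, 5 of the 6 ERSE genes and 8 of the 9 genes with an ATF4 element kept their match.

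The labels number the replicates in both genotypes. Over all probe sets, same-numbered KO and WT arrays correlated in their deviations from the group means at 0.10, -0.00 and 0.27. Not every array correlated best with its own number, so the numbers were not taken as pairs. The arm means did share an order by replicate number in both genotypes, and whether this came from pairing was not tested. With the replicate number as a block, 4 members were higher and 5 lower at an unadjusted p under 0.05 (limma), and 0 passed the adjusted threshold. The share of all probe sets was not counted in that fit either.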
